A study of Mus musculus with 15 samples.

Results

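The chemokines examined here were the 10 genes *Cxcl1*, *Cxcl2*, *Cxcl5*, *Cxcl10*, *Cxcl12*, *Ccl2*, *Ccl5*, *Ccl7*, *Ccl20* and *Cx3cl1*, taken by name from the 24134 genes of 2 count tables of mouse articular chondrocytes. All 10 were listed in both tables. The cells came from the femoral condyles and tibial plateaus of ICR mice aged 4 to 5 days and were sequenced as primary cultures. In the siRNA table, 3 libraries came from cells given control siRNA (siCtrl) and 3 from cells given siRNAs against *Tnks* and *Tnks2* together (siTnks/2), which encode the tankyrases. In the drug table, 3 libraries each came from cells kept for 108 h with the vehicle DMSO, with 10 μM XAV939 or with 10 μM IWR-1, small molecules that inhibit tankyrase. The transfection time was not given in the sources used here, and whether the cells of 1 library came from 1 or several animals was not either. The libraries held between 26857070 and 36615194 counts. In the siRNA table *Tnks* measured 58.3 to 70.1 CPM (counts per 1000000 counts, scaled by the TMM method) with control siRNA and 12.7 to 24.0 CPM with knockdown, and *Tnks2* 115 to 119.5 and 44.9 to 61.2 CPM.

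Chemokines are small secreted proteins that direct the movement of cells bearing the matching receptors, and chondrocytes are known to make them when exposed to inflammatory cytokines. *Cxcl1*, *Cxcl2* and *Cxcl5* encode attractants of neutrophils that act through CXCR2, and *Ccl2* and *Ccl7* encode attractants of monocytes that act through CCR2. *Ccl20* acts through CCR6, *Ccl5* attracts T cells and monocytes, and *Cxcl10* is an interferon-induced ligand of CXCR3. *Cx3cl1* encodes a chemokine anchored in the membrane, and *Cxcl12*, the ligand of CXCR4, is best known for steady production by stromal cells. Transcription of many of the inducible members is known to depend on NF-kB. In build GRCm38.p6, *Cxcl5* (Entrez 20311, 90759298 to 90761625), *Cxcl1* (Entrez 14825, 90891245 to 90893121), *Cxcl2* (Entrez 20310, 90903899 to 90905938) and *Cxcl10* (Entrez 15945, 92346638 to 92348889) are on chromosome 5, and *Ccl2* (Entrez 20296, 82035577 to 82037452), *Ccl7* (Entrez 20306, 82045712 to 82047525) and *Ccl5* (Entrez 20304, 83525778 to 83530518) on chromosome 11. *Cxcl12* (Entrez 20315, 117168535 to 117181368) is on chromosome 6 and *Cx3cl1* (Entrez 20312, 94772180 to 94782427) on chromosome 8, while *Ccl20* (Entrez 20297, 83116766 to 83119167) is on chromosome 1. Counts cover the exons of each gene as a whole.

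Promoter sequence was available for 6 of the 10 genes in the RefSeq table of build GRCm38.p6, the assembly also called mm10. The 250 bases before the annotated start are printed for the 5 of these that hold at least 1 match to a motif searched. The other, *Cx3cl1*, held no match and is not printed. Capitals mark matches on either strand to NF-kB (GGG, any 3 bases, then TTCC), interferon response (GAAA, any 2 bases, then GAAA), AP-1 (TGANTCA) or TCF/LEF (CTTTGAT, bound by the factors of Wnt signalling) motifs.
*Cxcl1*, chr5:90890995-90891244, plus strand: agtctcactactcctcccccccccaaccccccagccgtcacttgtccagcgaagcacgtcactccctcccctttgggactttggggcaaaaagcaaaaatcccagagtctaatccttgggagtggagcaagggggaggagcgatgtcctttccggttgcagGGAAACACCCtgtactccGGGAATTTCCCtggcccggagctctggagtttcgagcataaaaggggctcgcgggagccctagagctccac
*Cxcl2*, chr5:90903649-90903898, plus strand: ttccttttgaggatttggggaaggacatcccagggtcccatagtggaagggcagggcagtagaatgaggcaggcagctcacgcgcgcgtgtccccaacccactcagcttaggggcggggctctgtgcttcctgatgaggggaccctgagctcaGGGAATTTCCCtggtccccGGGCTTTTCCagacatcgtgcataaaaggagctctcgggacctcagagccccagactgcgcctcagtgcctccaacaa
*Ccl20*, chr1:83116516-83116765, plus strand: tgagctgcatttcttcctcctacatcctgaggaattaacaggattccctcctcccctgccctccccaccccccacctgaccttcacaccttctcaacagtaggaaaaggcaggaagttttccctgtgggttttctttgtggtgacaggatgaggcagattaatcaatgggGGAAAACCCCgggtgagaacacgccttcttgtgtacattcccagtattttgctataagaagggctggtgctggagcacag
*Cxcl10*, chr5:92348890-92349139, minus strand: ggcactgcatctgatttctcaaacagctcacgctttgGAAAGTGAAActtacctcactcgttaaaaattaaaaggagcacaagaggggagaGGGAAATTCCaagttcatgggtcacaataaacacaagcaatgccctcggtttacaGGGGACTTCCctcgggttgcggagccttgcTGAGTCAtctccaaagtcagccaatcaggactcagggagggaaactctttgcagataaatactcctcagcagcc
*Cxcl12*, chr6:117168285-117168534, plus strand: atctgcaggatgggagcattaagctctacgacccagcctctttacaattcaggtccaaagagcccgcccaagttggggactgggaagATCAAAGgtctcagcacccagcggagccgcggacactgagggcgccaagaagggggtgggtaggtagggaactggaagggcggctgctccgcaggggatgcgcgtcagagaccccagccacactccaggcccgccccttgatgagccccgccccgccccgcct

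The NF-kB motif was found in the promoters of *Cxcl1*, *Cxcl2*, *Ccl20* and *Cxcl10*. It was found in 4.65% of the 32851 promoters of the table. In *Cxcl1* and *Cxcl2* the stretch GGGAATTTCCC matched on both strands in overlapping positions, 71 to 61 bases before the start of *Cxcl1* and 97 to 87 bases before that of *Cxcl2*. *Cxcl10* was the only one of these promoters with an interferon response match (2.98% of all promoters) and an AP-1 match (6.75%). *Cxcl12* had a single TCF/LEF match (3.21%), and *Cx3cl1* had no match to any of the 4 motifs. These matches describe letters in the windows and do not show binding. *Cxcl5*, *Ccl2*, *Ccl5* and *Ccl7* are named without a sequence.

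**Figure D1:**
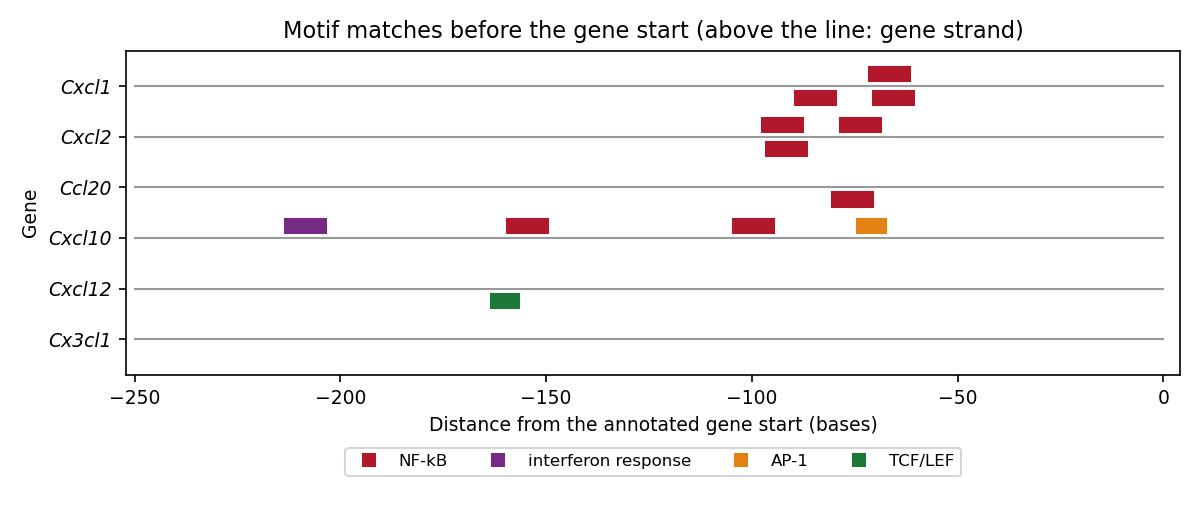
Each line is the 250 bases before the annotated start of 1 gene, with distance from the start in bases on the horizontal axis, and each box is 1 motif match, above the line on the gene's strand and below it on the other. The NF-kB matches of *Cxcl1*, *Cxcl2* and *Ccl20* lie within 97 bases of the start, while *Cx3cl1* has no box.

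The drug-table cultures held far more chemokine mRNA than the siRNA-table cultures. Summed over the 10 genes, the level was 6691, 6879 and 6362 CPM in the DMSO libraries and 112, 89.1 and 146 CPM in the siCtrl libraries. *Cxcl5* measured 3684, 3817 and 3352 CPM with DMSO against 4.10, 8.76 and 6.58 CPM with siCtrl, a ratio of the means of 558. The corresponding ratio was 521 for *Cxcl1*, 343 for *Ccl20*, 337 for *Ccl2*, 331 for *Cxcl2* and 192.5 for *Ccl7*. It was lower for the remaining members, 10.1 for *Ccl5*, 7.55 for *Cx3cl1*, 4.31 for *Cxcl10* and 3.28 for *Cxcl12*. The ratio of *Cxcl2* was 686 without siCtrl replicate 2, and those of *Ccl5* and *Cxcl10* were 18.1 and 7.06 without siCtrl replicate 3. The tables were normalized and fitted separately, and the cultures differed in transfection, vehicle and possibly time, which cannot be told apart, so these ratios are given side by side and no test was run on them. The summed level of 20 NF-kB factors and feedback genes was 1877 to 2065 CPM with DMSO and 557 to 620 CPM with siCtrl, and that of 10 chondrocyte markers was 27906 to 37251 and 86087 to 114930 CPM, and the part of either in the difference was not tested.

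The order of the members also differed between the control cultures. Per kilobase of exon, *Cxcl5* was the most abundant of the set with DMSO (1942 CPM per kb), followed by *Cxcl1* (817), *Ccl2* (554), *Ccl7* (318), *Cx3cl1* (59.7), *Cxcl2* (40.8), *Ccl20* (29.8), *Cxcl12* (27.3), *Ccl5* (15.03) and *Cxcl10* (3.81). *Ccl20* and *Cxcl12* were the only neighbours in that order whose libraries overlapped. With siCtrl, *Cxcl12* (8.32 CPM per kb) and *Cx3cl1* (7.91) stood first with overlapping libraries, above *Cxcl5* (3.48). *Ccl7*, *Ccl2*, *Cxcl1* and *Ccl5* followed between 1.65 and 1.49 CPM per kb, each overlapping its neighbour, then *Cxcl10* (0.885), *Cxcl2* (0.123) and *Ccl20* (0.0870). *Cxcl2* and *Ccl20* were near the limit of detection in the siRNA table, with 2 to 14 and 1 to 5 counts per siCtrl library.

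**Figure D2:**
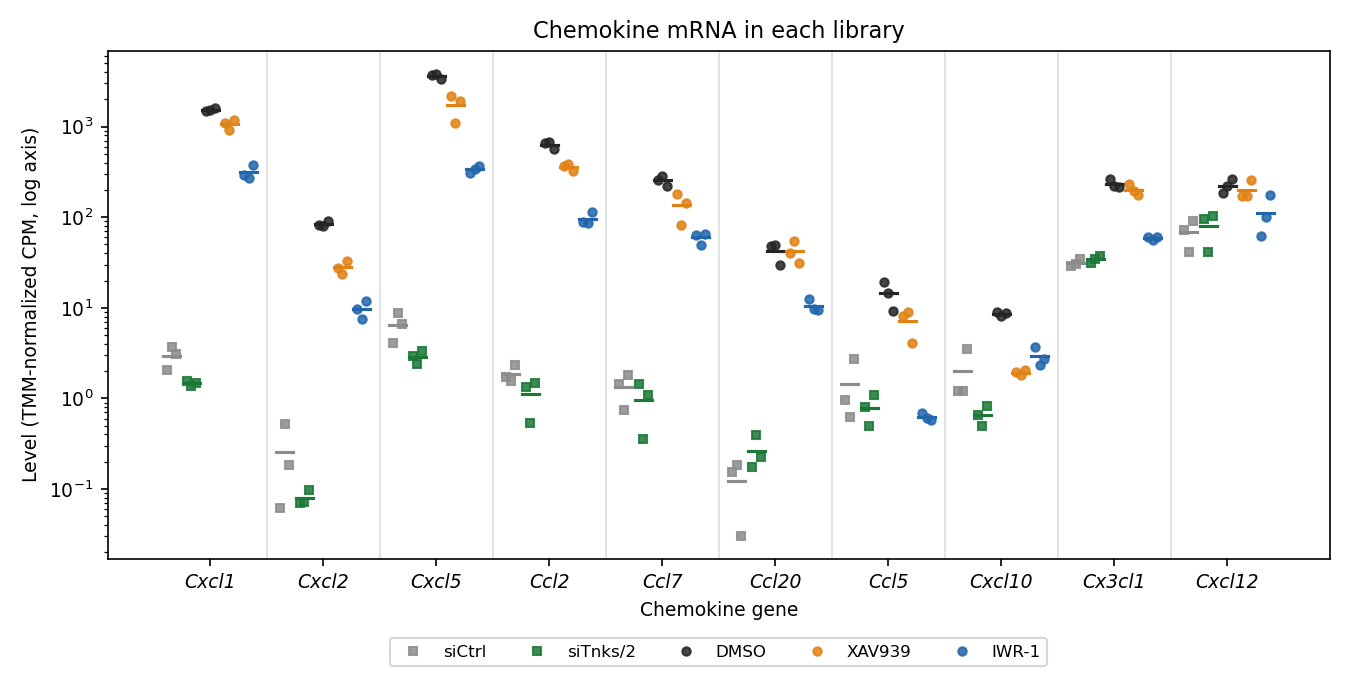
TMM-normalized CPM on a log axis for each chemokine gene, with 1 point per library (3 per group) and a short line at the group mean, squares for the siRNA table and circles for the drug table. The 3 *Cxcl5* points of DMSO lie between 3352 and 3817 CPM, and those of siCtrl between 4.10 and 8.76 CPM.

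IWR-1 lowered the mRNA of all 10 chemokines. Each of the 10 passed an adjusted p of 0.05 (edgeR's quasi-likelihood F test, Benjamini-Hochberg over 13873 genes), where 36.4% of all genes tested were called and 20.2% were called lower. The median log2 fold change over the 10 was −2.19, against 0.006 over all genes tested. The study set its limits, more than 3-fold and an adjusted p under 1e-05, on DESeq2. By DESeq2 they were passed by 8 members, all except *Cxcl10* and *Cxcl12*, and by 4.1% of the 16085 genes with an adjusted p. On edgeR's adjusted p they were passed by *Cxcl1*, *Cxcl2*, *Cxcl5*, *Ccl2* and *Cx3cl1* and by 1.05% of genes.

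The neutrophil attractants fell steeply with IWR-1. *Cxcl5* went from 3684, 3817 and 3352 CPM with DMSO to 310, 337 and 365 CPM (log2 fold change −3.42, SE 0.24, adjusted p = 3.62e-06), which is 10.7-fold. *Cxcl2* measured 81.0, 80.2 and 91.7 CPM with DMSO and 9.65, 7.61 and 11.9 CPM with IWR-1 (log2 fold change −3.12, SE 0.18, adjusted p = 1.65e-06). *Cxcl1* measured 1486, 1505 and 1606 CPM and 291, 273 and 375 CPM (−2.29, SE 0.15, adjusted p = 3.29e-06). For each of these genes the IWR-1 libraries lay close together and far below every DMSO library. Of the 50-base stretches of the *Cxcl2* transcripts, 5.84% are also found in *Cxcl3*, so a small part of its reads could be shared with that gene.

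The monocyte attractants fell with IWR-1 as well. *Ccl2* measured 655, 678 and 560 CPM with DMSO and 87.9, 85.4 and 113 CPM with IWR-1 (log2 fold change −2.72, SE 0.15, adjusted p = 1.31e-06). *Ccl7*, its neighbour on chromosome 11 within a span of 11.9 kb, measured 257, 287 and 222 CPM and 64.4, 49.4 and 65.4 CPM (−2.09, SE 0.25, adjusted p = 0.000103). The largest log2 fold change among the members was that of *Ccl5*, at −4.51 (SE 0.38, adjusted p = 1.26e-05), or 22.8-fold. Its libraries held 19.4, 14.7 and 9.17 CPM with DMSO and 0.697, 0.610 and 0.580 CPM with IWR-1, the latter from 19 to 24 counts each. *Ccl20* measured 48.4, 49.3 and 29.4 CPM and 12.5, 9.63 and 9.36 CPM (−2.01, SE 0.25, adjusted p = 0.000114). In all 4 genes the groups did not overlap. The share of all genes whose groups do not overlap was not counted, here or in the comparisons that follow.

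*Cx3cl1*, the membrane-anchored chemokine, measured 266, 221 and 218 CPM with DMSO and 60.4, 56.5 and 61.1 CPM with IWR-1 (log2 fold change −1.98, SE 0.13, adjusted p = 2.90e-06). *Cxcl10* measured 9.02, 8.06 and 8.67 CPM and 3.72, 2.31 and 2.70 CPM (−1.56, SE 0.18, adjusted p = 7.98e-05). *Cxcl12* had the smallest change of the set. Its libraries held 186, 219 and 265 CPM with DMSO and 62.3, 102 and 174 CPM with IWR-1 (−0.99, SE 0.32, adjusted p = 0.0305). The spread among the IWR-1 libraries was wide for *Cxcl12*, although the groups did not overlap. Its call was lost without DMSO replicate 2 (adjusted p = 0.0526), DMSO replicate 3 (0.0779), IWR-1 replicate 1 (0.0779) or IWR-1 replicate 2 (0.1), with log2 fold changes from −1.46 to −0.71 when a library was left out.

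**Figure D3:**
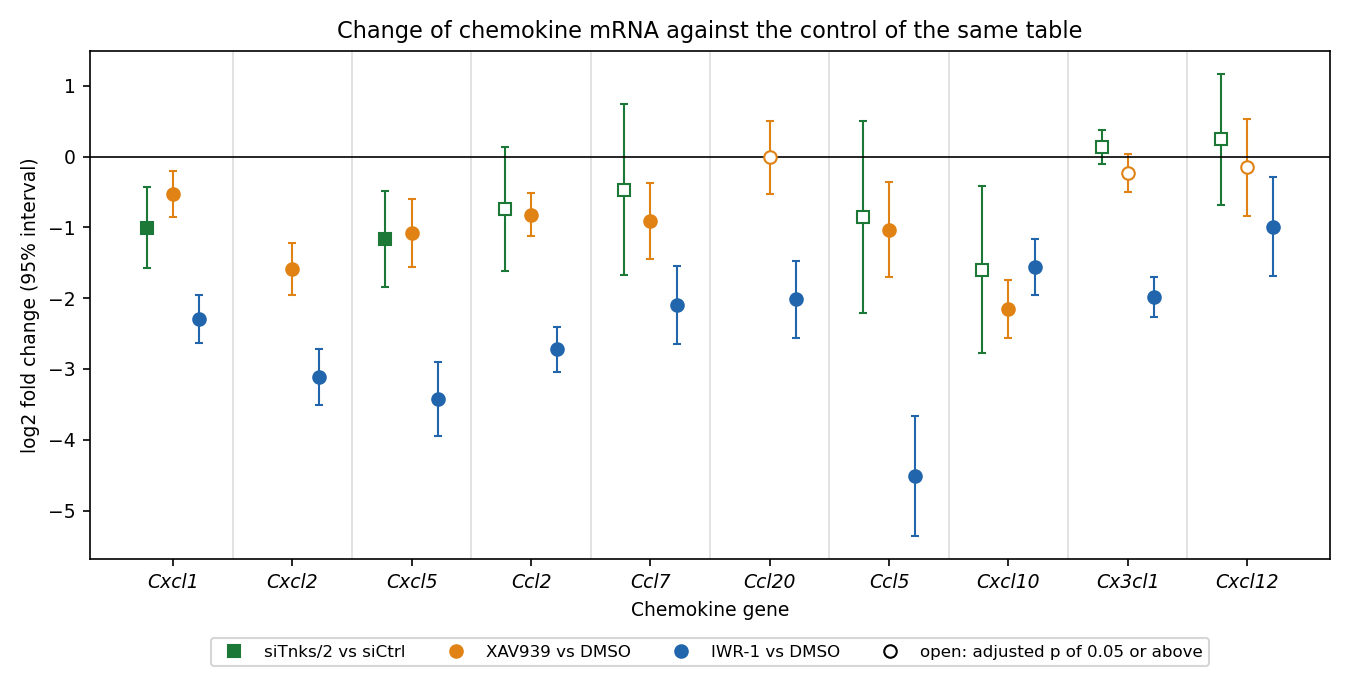
The log2 fold change of each chemokine against the control of its own table, with 95% intervals from edgeR's fit of 3 libraries per group, filled where the adjusted p was under 0.05. The IWR-1 points lie between −4.51 and −0.99, while the knockdown points of *Cx3cl1* and *Cxcl12* lie above 0 with intervals that include it, and *Cxcl2* and *Ccl20* have no knockdown point because they were not tested there.

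XAV939 lowered 7 of the 10 chemokines and raised 0, where 17.4% of the 13873 genes tested were called and 9.85% were called lower. The median log2 fold change over the 10 was −0.87, against 0.02 over all genes. Both inhibitors were set against the same DMSO libraries, so their changes are not independent of each other. By DESeq2, *Cxcl10* and *Cxcl2* passed the limits of the study with XAV939, as did 1.31% of the 15002 genes with an adjusted p. On edgeR's adjusted p, 0 members and 0.00721% of genes passed them.

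*Cxcl10* had the largest change with XAV939. It measured 9.02, 8.06 and 8.67 CPM in DMSO libraries and 1.94, 1.80 and 2.04 CPM under XAV939 (log2 fold change −2.15, SE 0.19, adjusted p = 7.68e-05), or 4.44-fold. *Cxcl2* followed, at 81.0, 80.2 and 91.7 CPM and 27.5, 23.4 and 33.1 CPM (−1.59, SE 0.17, adjusted p = 0.0002). Both genes were tightly grouped within each treatment. *Cxcl5* went from 3684, 3817 and 3352 CPM to 2173, 1083 and 1891 CPM (−1.08, SE 0.22, adjusted p = 0.00698), with XAV939 replicate 2 well below its companions. *Ccl2* measured 368, 383 and 322 CPM with XAV939 (−0.82, SE 0.14, adjusted p = 0.00267), and no XAV939 library reached the lowest DMSO library.

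The calls of the other 3 members that fell were less stable. *Cxcl1* measured 1086, 910 and 1193 CPM with XAV939 (log2 fold change −0.53, SE 0.15, adjusted p = 0.0325), below every DMSO library, and its adjusted p was above 0.05 without any 1 DMSO library or without XAV939 replicate 1 or 2 (0.0557 to 0.0896). *Ccl7* measured 181, 80.9 and 143 CPM (−0.91, SE 0.24, adjusted p = 0.0263), and its call was lost without DMSO replicate 1 (0.0741) or 2 (0.0624). *Ccl5* measured 8.11, 9.005 and 4.10 CPM (−1.03, SE 0.30, adjusted p = 0.0397). It was lost without DMSO replicate 1 (0.158) or 2 (0.07), without XAV939 replicate 1 (0.068) or 3 (0.0701), and in a fit of the 2 groups alone (0.0757). The groups of *Ccl5* nearly met, at 9.005 CPM for the highest XAV939 library and 9.17 CPM for the lowest DMSO library.

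The 3 members that were not called with XAV939 were *Ccl20*, *Cx3cl1* and *Cxcl12*. *Ccl20* measured 40.7, 54.6 and 31.0 CPM against 48.4, 49.3 and 29.4 CPM with DMSO, and the 95% interval of its log2 fold change ran from −0.53 to 0.50. *Cx3cl1* measured 230, 194 and 175 CPM against 266, 221 and 218 CPM (log2 fold change −0.23, 95% interval −0.50 to 0.04, adjusted p = 0.218). *Cxcl12* measured 170, 173 and 260 CPM against 186, 219 and 265 CPM (−0.15, 95% interval −0.84 to 0.54, adjusted p = 0.774). In all 3 genes the libraries of the groups overlapped.

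Knockdown of *Tnks* and *Tnks2* lowered *Cxcl1* and *Cxcl5*, from levels that were low to begin with. Of the 10 chemokines, 8 were abundant enough to be tested after knockdown, and 2 of these were called, both lower, where 18% of the 13672 genes tested were called and 7.61% were called lower. The share of the tested members that was called (2 of 8) is near that of all genes, so the count is not a result about the members. The median log2 fold change over the 8 was −0.80, against −0.001 over all genes, and the median covers only members abundant enough to be tested.

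*Cxcl1* measured 2.05, 3.66 and 3.12 CPM with siCtrl and 1.56, 1.35 and 1.47 CPM with siTnks/2 (log2 fold change −1.004, SE 0.24, adjusted p = 0.0337). *Cxcl5* measured 4.10, 8.76 and 6.58 CPM and 2.95, 2.42 and 3.29 CPM (−1.16, SE 0.29, adjusted p = 0.0357). The groups did not overlap for either gene, although the lowest siCtrl library of *Cxcl5* (4.10 CPM) was close to its highest siTnks/2 library (3.29 CPM). The call of *Cxcl1* was lost without siCtrl replicate 2 (0.09) or 3 (0.106) and without siTnks/2 replicate 1 (0.0891) or 3 (0.069). That of *Cxcl5* was lost without siCtrl replicate 2 (0.0878) or 3 (0.0995) or any 1 siTnks/2 library (0.053 to 0.0999). With 1 library left out, the log2 fold change stayed between −1.20 and −0.82 for *Cxcl1* and between −1.40 and −0.88 for *Cxcl5*.

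*Cxcl10* measured 1.21, 1.22 and 3.55 CPM with siCtrl and 0.659, 0.499 and 0.816 CPM with siTnks/2 (log2 fold change −1.60, SE 0.50, adjusted p = 0.0665). With the replicate number as a block the value was −1.53 (SE 0.28, adjusted p = 0.0138), which passed, and DESeq2 called it as well (−1.60, adjusted p = 0.0172). The high siCtrl library was replicate 3, and without it the log2 fold change was −0.88, which was not called either. The same library held the most *Ifit1* (16.4 CPM against 2.52 and 1.37 CPM in the others) and *Isg15* (15.03 CPM against 2.77 and 1.55 CPM), both interferon-induced genes, and the part of this in the *Cxcl10* value was not tested. *Cxcl10* lies within the span of *Art3*, a gene of the ADP-ribosyltransferase family that stayed at or under 0.998 CPM in every library.

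The other 5 tested members were not called after knockdown. *Ccl2* measured 1.74, 1.55 and 2.33 CPM with siCtrl and 1.35, 0.535 and 1.47 CPM with siTnks/2 (log2 fold change −0.74, 95% interval −1.62 to 0.14). *Ccl5* and *Ccl7* had log2 fold changes of −0.86 (95% interval −2.21 to 0.50) and −0.47 (−1.67 to 0.74), from levels of at most 2.69 CPM. The highest siCtrl library of *Ccl5* was replicate 3, without which its value was −0.01. These intervals allow both a fall of more than 2-fold and no change. *Cx3cl1* measured 28.7, 30.4 and 34.2 CPM and 30.8, 34.1 and 37.5 CPM (0.14, 95% interval −0.10 to 0.37, adjusted p = 0.369). *Cxcl12* measured 71.5, 41.5 and 91.1 CPM and 96.5, 41.7 and 104 CPM (0.25, 95% interval −0.68 to 1.17, adjusted p = 0.692), and replicate 2 was the lowest library of both groups. *Cxcl2*, with 2 to 3 counts per siTnks/2 library, and *Ccl20*, with 5 to 11, were not tested.

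The inhibitors were compared directly at the same dose and time. Of the 10 members, 8 were lower with IWR-1 than with XAV939, where 17.6% of genes were called and 10.2% were called lower. The differences on the log2 scale were −3.48 for *Ccl5* (SE 0.38, adjusted p = 0.000279), −2.35 for *Cxcl5* (SE 0.23, adjusted p = 0.000127) and −2.002 for *Ccl20* (SE 0.25, adjusted p = 0.000529). They were −1.90 for *Ccl2*, −1.76 for *Cxcl1*, −1.75 for *Cx3cl1*, −1.53 for *Cxcl2* and −1.18 for *Ccl7*, with adjusted p-values from 3.59e-05 to 0.00799.

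*Cxcl10* went the other way. It was 1.80 to 2.04 CPM with XAV939 and 2.31 to 3.72 CPM with IWR-1, a log2 difference of 0.59 (95% interval 0.17 to 1.02, adjusted p = 0.056), which passed with the replicate number as a block (0.59, SE 0.17, adjusted p = 0.0205). *Cxcl12* differed by −0.84 (95% interval −1.53 to −0.14, adjusted p = 0.0944), and this passed with the block as well (−0.91, SE 0.16, adjusted p = 0.0011). Without the block these 2 members were not called with every library in the fit, although the libraries of *Cxcl10* did not overlap. *Cxcl10* passed without IWR-1 replicate 2 (0.73, adjusted p = 0.0437) and *Cxcl12* without IWR-1 replicate 3 (−1.29, adjusted p = 0.0112). DESeq2's Wald test called both (adjusted p = 0.0403 for *Cxcl10* and 0.0355 for *Cxcl12*).

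The drug effects were also compared with the knockdown effect, as differences between effects in 1 model over the 15 libraries (14271 genes). Of the 8 members abundant enough to be tested in both tables, the IWR-1 effect was lower than the siTnks/2 effect for 6, where 24.4% of genes were called and 13.9% were called lower. The difference was −3.66 for *Ccl5*, −2.28 for *Cxcl5*, −2.13 for *Cx3cl1*, −1.99 for *Ccl2* and −1.30 for *Cxcl1* on the log2 scale, with adjusted p-values from 1.74e-06 to 0.00306. *Cx3cl1* was well measured in both tables, falling with IWR-1 from 235 to 59.4 CPM on average and lying at 31.1 and 34.2 CPM with siCtrl and siTnks/2. The difference for *Ccl7* (−1.63, adjusted p = 0.0444) lost its call in 9 of 12 fits that left out 1 library, the exceptions being those without siCtrl 3, siTnks/2 2 or DMSO 3, with adjusted p up to 0.179. *Ccl20* was not tested in the siRNA table, where it held 1 to 11 counts per library. It entered this fit through its drug-table counts, so its difference (−3.13) is given as a value only and not as a call.

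*Cxcl10* and *Cxcl12* were not called in this comparison. *Cxcl10* differed by 0.03 (95% interval −0.90 to 0.96). *Cxcl12* differed by −1.24 (95% interval −2.39 to −0.09, adjusted p = 0.109), which passed with the replicate block (−1.30, SE 0.21, adjusted p = 0.000414), without siTnks/2 replicate 2 (−1.56, adjusted p = 0.0325) and without IWR-1 replicate 3 (−1.70, adjusted p = 0.0287). *Cxcl2* was not tested in the siRNA table, where it had few counts, and entered this fit through its drug-table counts. Its difference (−1.58, 95% interval −3.55 to 0.39, and −2.52 without siCtrl replicate 2) is given as a value only. The XAV939 and siTnks/2 effects did not differ beyond the test for any of the 8 members tested in both tables. Of all genes, 13.5% were called. *Cxcl2* and *Ccl20* entered that fit through their drug-table counts. Their differences of −0.06 and −1.13 (95% interval −2.72 to 0.46 for *Ccl20*) are given as values only. No interval is given for *Cxcl2*. Its SE, the log2 fold change divided by the root of F, is unstable when both are very small. In that comparison edgeR gave 1 member an unadjusted p under 0.05, *Cx3cl1* (−0.38, adjusted p = 0.138, and 0.0283 with the block), and DESeq2 called 0. Without siCtrl replicate 3, *Cxcl10* passed (−1.29, adjusted p = 0.0265). The intervals were wide, such as −0.70 to 0.83 for *Cxcl5* and −0.11 to 1.03 for *Cxcl1*, so equal effects are not shown.

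The members *Cxcl5*, *Cxcl1* and *Cxcl2* lie on chromosome 5 in a cluster of CXC chemokine genes that spans 146.6 kb and also holds *Ppbp*, *Pf4*, *Cxcl3* and *Cxcl15*. The level varied widely among these neighbours with DMSO, from 3352 CPM or more for *Cxcl5* to 0.427 CPM or less for *Pf4*. *Cxcl3*, which encodes another CXCR2 ligand, measured 140, 122 and 106 CPM in the DMSO libraries, 43.1, 28.1 and 43.3 CPM under XAV939 and 10.9, 8.50 and 11.5 CPM under IWR-1. The log2 fold change of *Cxcl3* was −1.68 with XAV939 (SE 0.18, adjusted p = 0.000233) and −3.57 with IWR-1 (SE 0.20, adjusted p = 1.52e-06), against −1.59 and −3.12 for *Cxcl2* of the same cluster. After knockdown *Cxcl3* fell from 1.09, 1.70 and 1.74 CPM to 0.173, 0.107 and 0.326 CPM (−2.86, SE 0.40, adjusted p = 0.00797), from 35 to 57 counts per siCtrl library and 3 to 10 per siTnks/2 library, so it did not enter the fit that kept only genes with 10 or more counts in all libraries. *Ppbp*, the precursor of a platelet-associated CXCR2 ligand, fell from 3.20 to 4.57 CPM with DMSO to 1.11 to 1.67 CPM with XAV939 (−1.61, adjusted p = 0.000852) and 0.465 to 0.551 CPM with IWR-1 (−3.03, adjusted p = 1.01e-05).

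**Figure D4:**
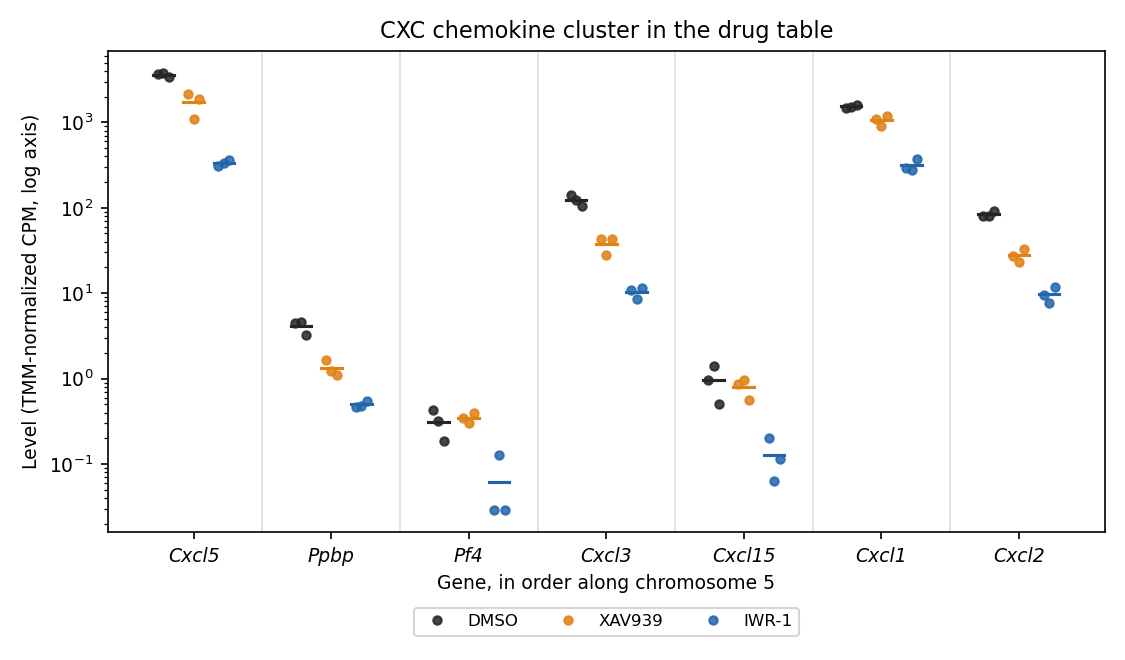
TMM-normalized CPM on a log axis for the 7 genes of the chromosome 5 cluster, in their order along the chromosome, with 1 point per library of the drug table and a line at the mean. *Cxcl5*, *Ppbp*, *Cxcl3*, *Cxcl1* and *Cxcl2* step down from DMSO to XAV939 to IWR-1, and *Pf4* and *Cxcl15* lie near or below 1 CPM.

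Other chemokine ligands did not all follow. Of 26 further ligand genes, 12 were tested in the drug table, and 6 were lower and 2 higher with IWR-1 while 3 were lower and 1 higher with XAV939. After knockdown 6 were tested, with 1 lower and 1 higher. Of all genes, 36.4% were called with IWR-1, 17.4% with XAV939 and 18% after knockdown, and the counts of this and the following lists stand beside those shares. *Cxcl14*, an attractant of dendritic cells and monocytes, rose after knockdown from 11.4, 13.4 and 9.76 CPM to 27.4, 37.7 and 21.6 CPM (log2 fold change 1.33, SE 0.22, adjusted p = 0.0117), a call lost without siCtrl replicate 1 or 3 (adjusted p up to 0.0544). With IWR-1 it fell from 40.0, 42.5 and 31.8 CPM to 13.8, 16.1 and 15.5 CPM (−1.33, SE 0.13, adjusted p = 2.74e-05). *Ccl9* rose from 5.06, 10.3 and 5.69 CPM with DMSO to 20.8, 19.9 and 19.1 CPM with XAV939 (1.51, SE 0.23, adjusted p = 0.00171) and to 23.3, 27.2 and 21.0 CPM with IWR-1 (1.76, SE 0.23, adjusted p = 0.000182). *Cxcl16*, a membrane-anchored ligand of CXCR6, fell with XAV939 (−0.83, adjusted p = 0.00801) and IWR-1 (−1.09, adjusted p = 0.000651) from 6.69 to 7.64 CPM.

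Few receptor genes were expressed. Of 23, 5 were tested in the drug table, with 2 lower under IWR-1 and 1 lower and 1 higher under XAV939, and 4 in the siRNA table, with 1 lower (1 lower and 1 higher with the replicate block). Among them *Ackr3* alone exceeded 2.10 CPM in any library. It encodes an atypical receptor that takes up CXCL12 without classical signalling. *Ackr3* measured 62.1, 55.4 and 59.6 CPM with siCtrl and 24.9, 19.4 and 29.7 CPM with siTnks/2 (log2 fold change −1.26, SE 0.15, adjusted p = 0.00538). In the drug table it reached 140, 124 and 167 CPM in the DMSO libraries, 37.0, 47.8 and 67.8 CPM under XAV939 (−1.50, SE 0.28, adjusted p = 0.00437) and 24.3, 20.9 and 42.6 CPM with IWR-1 (−2.29, SE 0.28, adjusted p = 0.000122). *Ackr3* thus fell in all 3 treatments, each library of which lay below its controls, while *Cxcl12* was called lower with IWR-1 alone. *Cxcr4*, the signalling receptor for CXCL12, stayed at or under 2.10 CPM and rose with XAV939 (1.58, SE 0.30, adjusted p = 0.00492). With IWR-1 its value was 0.82 (adjusted p = 0.0611), called with the replicate block (0.80, adjusted p = 0.0471).

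**Figure D5:**
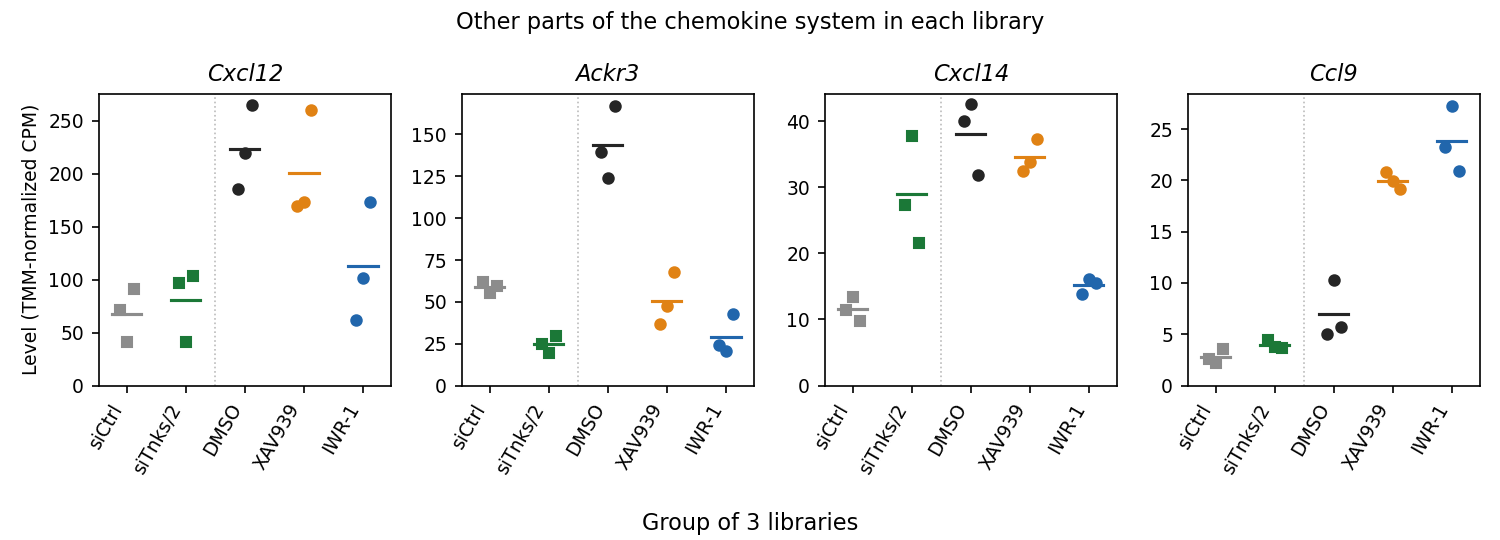
TMM-normalized CPM from 0 for *Cxcl12*, the CXCL12 scavenger gene *Ackr3* and the further ligands *Cxcl14* and *Ccl9*, with 1 point per library, a line at the group mean and a dotted line between the siRNA and the drug table. *Ackr3* lies at 19.4 to 29.7 CPM with siTnks/2 against 55.4 to 62.1 CPM with siCtrl, and *Ccl9* lies at 19.1 CPM or more with either drug.

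Cytokines and receptors that act upstream of chemokine genes were examined as a list of 27. With IWR-1, 12 of 21 tested were lower and 1 higher, with XAV939 4 were lower and 2 higher, and after knockdown 4 of 20 tested were lower and 2 higher. With the replicate block these were 7 lower and 3 higher with XAV939 and 7 lower and 4 higher after knockdown, against 33.4% and 34.6% of all genes called with it. *Il6*, a major inflammatory cytokine, measured 107, 107 and 152 CPM in the DMSO libraries, 27.3, 16.8 and 62.8 CPM under XAV939 (log2 fold change −1.77, SE 0.44, adjusted p = 0.0186) and 4.74, 5.26 and 11.01 CPM with IWR-1 (−4.12, SE 0.49, adjusted p = 9.47e-05). *Lif*, a cytokine of the same family, fell with XAV939 (−1.64, adjusted p = 0.00421), IWR-1 (−3.69, adjusted p = 1.72e-05) and knockdown (−1.07, adjusted p = 0.026). The mRNA of the classical inducers was scarce, as *Tnf* stayed at or under 0.640 CPM, falling with IWR-1 (−2.69, adjusted p = 0.000782), and *Il1b* at or under 0.0582 CPM. *Il17ra*, a receptor chain for IL-17, rose with XAV939 (0.61, adjusted p = 0.0356), with IWR-1 (0.68, adjusted p = 0.0103) and after knockdown (0.39, adjusted p = 0.0128). Leaving out 1 library ended the XAV939 call of *Il6* (without XAV939 replicate 1 or 2, adjusted p up to 0.0691) and the knockdown call of *Lif* (without siCtrl 3 or siTnks/2 1 or 3, up to 0.089). It ended the *Il17ra* calls with XAV939 (without DMSO 1 or 2 or XAV939 2 or 3, up to 0.134), with IWR-1 (without DMSO 1, 0.05) and after knockdown (without siCtrl 1 or 3, up to 0.064).

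Of 20 NF-kB subunits, inhibitors and feedback genes, all of which were tested, 12 were lower and 1 higher with IWR-1, 5 were lower and 1 higher with XAV939, and 2 were lower and 1 higher after knockdown. With the replicate block, 13 were lower and 2 higher with IWR-1, 8 lower and 1 higher with XAV939 and 4 lower and 2 higher after knockdown. Of the 13873 genes tested with IWR-1, the block called 3514 lower and 3079 higher. The IWR-1 block counts of this and the following lists stand beside these. *Nfkbiz*, which encodes a nuclear NF-kB cofactor, measured 320, 279 and 334 CPM with DMSO and 87.5, 91.4 and 110 CPM with IWR-1 (log2 fold change −1.69, SE 0.13, adjusted p = 5.84e-06). *Tnfaip3*, a feedback inhibitor of NF-kB, fell with IWR-1 (−1.59, adjusted p = 1.77e-05) and XAV939 (−1.38, adjusted p = 0.000179). *Traf1*, an adaptor of TNF receptors, fell with IWR-1 (−1.89, adjusted p = 7.16e-05), after knockdown (−1.20, adjusted p = 0.0209) and with XAV939 (−0.65, adjusted p = 0.0497), the last a call lost under RLE or upper-quartile scaling, the 10-count filter, the fit of 2 groups, and without any 1 library but XAV939 replicate 2 (adjusted p up to 0.155). The members that rose were *Chuk* with IWR-1 (0.44, adjusted p = 0.0105), an activating kinase of the pathway, *Vcam1* with XAV939 (1.21, adjusted p = 0.0149), an adhesion molecule, and *Tnip1* after knockdown (0.25, adjusted p = 0.0454), an inhibitor that fell with IWR-1 (−0.48, adjusted p = 0.0155). Each of these risers lost its call without some library, *Chuk* without DMSO 1 (0.0514), *Vcam1* without DMSO 1 (0.0659) and *Tnip1* without any 1 siCtrl library or siTnks/2 1 or 2 (up to 0.157), and its IWR-1 call without DMSO 1 or 2 or IWR-1 1 or 3 (up to 0.0619), as did *Traf1* after knockdown without any siCtrl library or siTnks/2 1 (up to 0.0775). The genes that fell include activators and inhibitors of the pathway.

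Of 14 genes that cleave chemokines or bind them at the cell surface and in the matrix, 9 were lower and 1 higher with IWR-1, 1 was lower and 3 higher with XAV939, and 2 were lower and 6 higher after knockdown. With the replicate block, 4 were lower and 3 higher with XAV939 and 5 lower and 6 higher after knockdown. *Mmp13*, a collagenase that also cleaves chemokines, measured 13835, 13170 and 12182 CPM with DMSO and 3531, 3446 and 3111 CPM with IWR-1 (log2 fold change −1.96, SE 0.18, adjusted p = 1.77e-05), and it rose after knockdown from 420 to 496 CPM to between 830 and 1015 CPM (0.98, SE 0.10, adjusted p = 0.00384). *Mmp9*, a gelatinase that trims CXC chemokines, fell with IWR-1 (−2.18, adjusted p = 1.11e-05) and rose with XAV939 (0.86, adjusted p = 0.00509) and after knockdown (2.91, adjusted p = 0.0269). *Tnfaip6*, whose product binds chemokines, fell with IWR-1 (−1.54, adjusted p = 0.0012), with XAV939 (−0.90, adjusted p = 0.0399) and after knockdown (−1.02, adjusted p = 0.0409). *Sdc3*, a heparan sulfate carrier, rose with IWR-1 (0.71), XAV939 (0.49) and knockdown (0.85), with adjusted p-values from 0.00134 to 0.0235. The knockdown call of *Mmp9* was lost without any siCtrl library or siTnks/2 1 (up to 0.0992). *Tnfaip6* lost its knockdown call without any siCtrl library or siTnks/2 1 or 2 (up to 0.12) and its XAV939 call without any DMSO library or XAV939 1 or 2 (up to 0.117), and *Sdc3* its XAV939 call without DMSO 1 or 2 or XAV939 2 or 3 (up to 0.0841).

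Markers of cells that could make chemokines were examined beside these results. All 10 chondrocyte markers were detected in every group, and 9 were higher with IWR-1, 3 with XAV939 and 2 after knockdown, with 0 lower by edgeR or DESeq2. With the replicate block, 9 were higher and 1 lower (*Prg4*, −0.58, adjusted p = 0.0021) with IWR-1, 8 higher with XAV939 and 7 after knockdown. Of 14 leukocyte markers, 13 were listed, and their summed level was 37.2 to 47.9 CPM with DMSO, 36.0 to 43.4 CPM with XAV939, 24.1 to 27.6 CPM with IWR-1, 20.5 to 23.0 CPM with siCtrl and 40.7 to 62.8 CPM with siTnks/2. The defining leukocyte marker *Ptprc* stayed at or under 0.157 CPM and the T cell marker *Cd3e* at or under 0.0314 CPM. Of the 7 leukocyte markers tested in the drug table, 4 were lower and 1 higher with IWR-1 and 1 was higher with XAV939, and of 4 tested after knockdown 1 was lower and 1 higher. Those lower with IWR-1 were *Cd14* (log2 fold change −1.61, adjusted p = 3.51e-05), *Cd68* (−1.03, adjusted p = 0.00088), *Csf1r* (−1.26, adjusted p = 0.0215) and *S100a8* (−2.61, adjusted p = 0.00115), and *Laptm5* was higher (2.72, adjusted p = 7.84e-06). The call of *Csf1r* was lost without DMSO replicate 2 or IWR-1 replicate 1 or 2 (adjusted p up to 0.0868). The call lower after knockdown, of *Cd14* (−0.58, adjusted p = 0.0404), was lost without any 1 siCtrl library or siTnks/2 replicate 1 (up to 0.15). With the replicate block, 2 were higher and 1 lower with XAV939. Of 8 fibroblast markers, 6 were lower with IWR-1, 5 with XAV939 and none after knockdown by edgeR (2 had an unadjusted p under 0.05, and DESeq2 called 1 lower and 1 higher, and the replicate block 2 lower and 1 higher). Their sum was 15849 to 17898 CPM with DMSO, 8247 to 10898 CPM with XAV939 and 7160 to 9920 CPM with IWR-1. Of 8 endothelial markers the summed level was at most 34.9 CPM, in siTnks/2 replicate 2, and 2 were lower with IWR-1. In bulk cultures fewer cells of a type and less mRNA per cell cannot be told apart, and the part of these markers in the chemokine changes was not tested.

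For the 8 members tested in both tables, which leaves out *Cxcl2* and *Ccl20*, the genes of most similar pattern were sought among 13341 genes by Pearson's r of log2 CPM over the 15 libraries, after the mean of each table was subtracted. *Cxcl1* and *Cxcl5* were each other's nearest gene (r = 0.982). The nearest to *Ccl2* was *Cacna1g* (0.988), to *Cx3cl1* *Hps5* (0.986), to *Cxcl12* *Ecm2* (0.969), to *Ccl5* *Arl5c* (0.966), to *Ccl7* *Sqor* (0.955) and to *Cxcl10* *Ankrd1* (0.939). The libraries share treatments and controls, so these values are descriptions of likeness with no test.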

How the data were processed

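The deposited values are read counts per gene for 15 libraries in 2 tables, made by the authors from stranded poly(A) mRNA libraries. Per the labels' processing notes, reads were processed with Trimmomatic 0.32, TopHat2 2.0.13 (build mm10) and HTSeq 0.6.1p1. The annotation and strand setting are not given in the sources used here, so reads of overlapping genes cannot be told apart. Of 24134 Entrez gene IDs, 24051 matched a RefSeq symbol.

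The analysis of the counts used edgeR 4.0.16 under R 4.3.3, with filterByExpr, TMM scaling and the quasi-likelihood F test. Each table was fitted in 1 model over its groups, without a replicate term, and p-values were adjusted by Benjamini-Hochberg over all genes tested. "Called" means an adjusted p under 0.05. A prior count of 0.125 enters log2 fold changes, SE is the log2 fold change divided by the root of F, and 95% intervals use the same SE. CPM per kb divides by the union of exons in GENCODE M21, which include all isoforms. Effects were compared between tables with an interaction contrast over the 15 libraries. The study's series text calls the 3 libraries of a group biological replicates. Counting error alone is small at these depths except for genes of a few counts.

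Same-numbered libraries deviated together from their group means. Their correlations were 0.143 to 0.553 in 9 pairs of the drug table and 0.424 to 0.518 in 3 pairs of the siRNA table. Differently numbered libraries gave −0.489 to 0.318 in 18 pairs of the drug table, which overlaps, and −0.409 to 0.0972 in 6 pairs of the siRNA table. Values with the replicate number as a block are therefore given beside a chemokine where they change its call. For other lists they are given where a count of calls moved by over 1.5 times. The replicate numbers come from the labels and column names.

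The members, lists and tests were chosen with earlier results of these data known. Named genes are all 10 members, *Tnks* and *Tnks2*, further ligands and receptors above 1 CPM in any library, and from each list up to 3 called genes each way with the largest change and up to 3 of the highest level. *Ptprc*, *Cd3e*, *S100a8*, *Cd68*, *Csf1r*, *Prg4*, *Il1b*, *Pf4* and *Art3* were named after their values were seen. Alternatives were RLE or upper-quartile scaling, no filter, at least 10 counts in every library, DESeq2 1.42.0's Wald test, the replicate block, a fit of the 2 groups compared, and leaving out each library. Ratios of DMSO to siCtrl levels without 1 siCtrl library were added after seeing the data. The steps were tested on simulated counts in which only genes of higher counts were changed and same-numbered libraries did not vary together. That test does not cover genes of few counts.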

Additional observations from a re-analysis of the deposited data

Results flagged for a closer look

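A difference between treatments was tested directly for the IWR-1 effect against the siTnks/2 effect, with an interaction contrast of edgeR's quasi-likelihood test over the 15 libraries. It passed for 6 of the 8 chemokines tested in both tables, each lower with IWR-1. *Ccl20* was too scarce to be tested in the siRNA table and entered through its drug-table counts. Its difference is therefore given as a value only and not as a call. The log2 differences were −1.30 for *Cxcl1*, −1.99 for *Ccl2*, −3.13 for *Ccl20*, −3.66 for *Ccl5*, −1.63 for *Ccl7*, −2.28 for *Cxcl5* and −2.13 for *Cx3cl1*. The treatments stood in different tables, with control levels of *Cxcl1*, *Cxcl5*, *Ccl2*, *Ccl7* and *Ccl20* that were 192.5 to 558 times higher in the drug table, and treatment and table cannot be told apart. *Ccl7* lost its call in 9 of 12 fits without 1 library. Groups of 3 libraries are too small for a test of single outlying libraries.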

How the results depend on the processing

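Under other scalings, filters, DESeq2, the replicate block or a fit of the 2 groups, the fitted chemokines kept their direction. Exceptions are given here with their values. The fits held 8 chemokines after knockdown and 10 in the other 5 comparisons. In the differences from knockdown, *Cxcl2* and *Ccl20* entered through their drug-table counts. Upper-quartile scaling turned *Ccl20* with XAV939 to 0.0377 and *Cxcl2* in the XAV939 minus knockdown difference to 0.0124. The replicate block turned *Cxcl10* in the IWR-1 minus knockdown difference to −0.0430 and *Cxcl5* in the XAV939 minus knockdown difference to −0.00913. With 1 library left out, *Cxcl12* after knockdown ranged from −0.0104 to 0.56, *Ccl20* with XAV939 from −0.24 to 0.15 and *Cxcl10* in the IWR-1 minus knockdown difference from −0.69 to 0.29. In the XAV939 minus knockdown difference *Cxcl2* ranged from −0.999 to 0.42, *Cxcl5* from −0.20 to 0.31, *Ccl2* from −0.41 to 0.16 and *Ccl5* from −1.03 to 0.16. None of these values was called.

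Leaving out 1 library gave 0 to 2 called chemokines after knockdown, 4 to 6 with XAV939, 9 to 10 with IWR-1, 8 to 9 between the inhibitors, 0 to 1 for the XAV939 minus knockdown difference and 6 to 7 for the IWR-1 minus knockdown difference. The last 2 ranges include *Cxcl2* and *Ccl20*, which were not tested in the siRNA table. Over all genes such fits called 608 to 2868 after knockdown and 1322 to 2484 with XAV939. They called 3771 to 5103 with IWR-1 and 1343 to 2338 between the inhibitors, with fewer libraries in each. For the differences from knockdown the range over all genes was not counted. With every library, 13.5% of genes were called in that of XAV939 and 24.4% in that of IWR-1. The replicate block called 4727 genes after knockdown (2459 without it), 4630 with XAV939 (2416), 4258 between the inhibitors (2442) and 1 chemokine, *Cx3cl1*, in the XAV939 minus knockdown difference. Beside the calls of *Cxcl10*, *Cxcl12* and *Cx3cl1* already given with the block, it changed no other call of a chemokine. A fit of DMSO and XAV939 alone called 1569 genes, and upper-quartile scaling put 53.3% of the XAV939 calls higher against 43.5% with TMM. The causes were not tested.

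Of the non-member genes called and named, 14 of 21 after knockdown, 12 of 24 with XAV939 and 9 of 36 with IWR-1 lost the call without some library. With every library kept, 1 of 21, 7 of 24 and 3 of 36 lost it under another setting. Among these were *Tnip1* after knockdown without a filter, and *Sdc3* and *Il17ra* with XAV939 in the fit of the 2 groups. All 100 chemokine levels under other scalings stayed within 1 SD of the replicates. Depth limits *Cxcl2* and *Ccl20* in the siRNA table, where they held 1 to 14 counts per library.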

Other observations

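Genes of the interferon response and of mRNA decay were also examined, as lists of 18 and 9. After knockdown 0 of 15 tested interferon response genes were called by edgeR, 0 had an unadjusted p under 0.05 and DESeq2 called 0, while the replicate block called 4 lower. With IWR-1 7 of 16 tested were lower and 2 higher, and with XAV939 2 were higher and 0 lower by edgeR, while DESeq2 and the replicate block each called 3 higher and 0 lower. Of all genes, 36.4% were called with IWR-1, 17.4% with XAV939 and 18% after knockdown. *Ifit3*, an interferon-induced gene, rose with XAV939 (log2 fold change 1.88, SE 0.28, adjusted p = 0.00147) and IWR-1 (3.02, SE 0.27, adjusted p = 1.73e-05). Among those called lower with IWR-1 were *Mx2*, *Ifit1* and *Irf7*. Over the settings that kept every library, their log2 fold changes ran from −1.84 to −1.77, from −0.81 to −0.77 and from −0.77 to −0.73. The calls of *Mx2* and *Ifit1* were lost under DESeq2 and without some library. *Cxcl10*, which is interferon-induced, fell with both inhibitors.

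Of the 9 factors that bind AU-rich or stem-loop elements of mRNAs, 4 were lower and 1 higher with IWR-1, 1 was lower with XAV939 (4 with the replicate block) and 2 were lower after knockdown (3 with the replicate block). *Zc3h12a*, whose product degrades inflammatory mRNAs, fell with IWR-1 (log2 fold change −1.65, SE 0.11, adjusted p = 2.99e-06) and after knockdown (−0.75, SE 0.14, adjusted p = 0.0165). The knockdown call was lost without siCtrl 2 or 3 or siTnks/2 1 (adjusted p up to 0.0696). *Zfp36*, another factor that destabilizes such mRNAs, fell with XAV939 (−0.76, adjusted p = 0.00401) and IWR-1 (−0.66, adjusted p = 0.00334).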
